A study of Mus musculus with 8 samples.

Results

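RNA of 8 annexin genes (*Anxa1*, *Anxa2*, *Anxa3*, *Anxa4*, *Anxa5*, *Anxa6*, *Anxa7* and *Anxa11*) was compared between CD8+ T cells with high surface IL-18Rα and the cells from which these had been removed. The genes were taken by name from a table of 47493 genes, and each name was found once. The table held 12 annexin genes in all. Female C57BL/6 mice, 6 to 8 weeks old, were inoculated intradermally with B16F10 cells, a mouse melanoma line. All 4 mice then received cyclophosphamide (300 mg/kg, day 3), Thy1.1+ Pmel-1 CD8+ T cells with a transgenic receptor for a melanoma antigen (day 5), recombinant human IL-2 for 3 days, and the anti-CD4 antibody GK1.5 (200 μg, days 10, 17 and 24). On day 25, endogenous (Thy1.1-negative) CD8+ T cells of each mouse were purified with beads from inguinal lymph nodes and spleen. Cells labelled for IL-18Rα were retained on a magnetic column (IL-18Rαhi-enriched fraction, n = 4), and the cells that ran through served as the control (flow-through, n = 4). Both fractions thus share tumor, cyclophosphamide, transferred cells, IL-2 and anti-CD4, and no untreated mouse was among them. Libraries with the same number were taken to come from the same mouse, since each mouse gave both fractions, although no label gives the number as that of a mouse. The fractions were enriched with beads, not sorted to purity.

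Annexins are cytosolic proteins that bind acidic phospholipids, above all phosphatidylserine, when calcium rises. They share a core of repeated domains that carries the calcium sites, and each has its own N-terminal head, through which several bind EF-hand proteins of the S100 type. Annexins organize membrane and cortical actin, take part in vesicle traffic and seal wounds of the plasma membrane. Annexin A2 forms a complex with S100A10 and annexin A1 with S100A11. Annexin A7 and annexin A11 have long heads that bind ALG-2, the product of *Pdcd6*, and annexin A7 also binds sorcin, the product of *Sri*. *Anxa1* and *Anxa2* are usually expressed at higher level in effector and memory than in naive T cells, while annexin A3 is best known from neutrophils and monocytes.

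Values are FPKM, fragment counts scaled by transcript length and library depth, as the authors computed them, and a ± value is the SD of 4 libraries. A log2 fold change is the difference of mean log2(FPKM + 1), enriched minus flow-through, so that changes of weakly expressed genes come out too small. Adjusted p-values are from limma, corrected over the 12166 genes that averaged 1 FPKM or more. *Il18r1*, which encodes the selected receptor, was at 30.6 ± 6.96 FPKM in flow-through cells and 110.8 ± 3.87 FPKM in IL-18Rαhi-enriched cells (log2 fold change 1.85, limma adjusted p = 0.00029). Estimated depth, in units of 1e6 fragments, was 14.5 to 17.3 per library and overlapped between the fractions. CD8 T-cell identity genes were present in every library, with *Cd8a* between 179 and 385 FPKM. Their sum over 8 genes was 1280 FPKM in flow-through replicate 1, 2048 to 2427 FPKM in flow-through replicates 2 to 4 and 2403 to 2578 FPKM in the enriched libraries. Flow-through replicate 1 thus stood apart as the library poorest in T-cell RNA. In RNA from bulk cells, fewer cells of a type and less RNA per cell cannot be told apart.

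Of the 8 annexins, 5 rose in the IL-18Rαhi-enriched fraction (*Anxa2*, *Anxa6*, *Anxa4*, *Anxa5* and *Anxa11*) and none fell, where 14.1% of all genes tested were called higher and 13.7% lower. The enriched libraries lay above every flow-through library for 6 of the 8 and below for none, which held for 16.4% and 15.9% of all genes. *Anxa1* differed by as much as the genes that rose but varied widely among mice. *Anxa7* was nearly level, and *Anxa3* varied more among mice than between fractions. With the mouse as a block in the model, *Anxa1* was also higher, so that 6 of 8 were called, where the block called 22.2% of all genes higher and 22.7% lower. The median log2 fold change of the 8 members was 0.88, beside -0.02 over all genes. The summed FPKM of the 8 was 377, 626, 498 and 570.4 in flow-through replicates 1 to 4 and 1139.9, 1156, 1099 and 1095 in the enriched libraries, a ratio of means of 2.17.

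**Figure D1:**
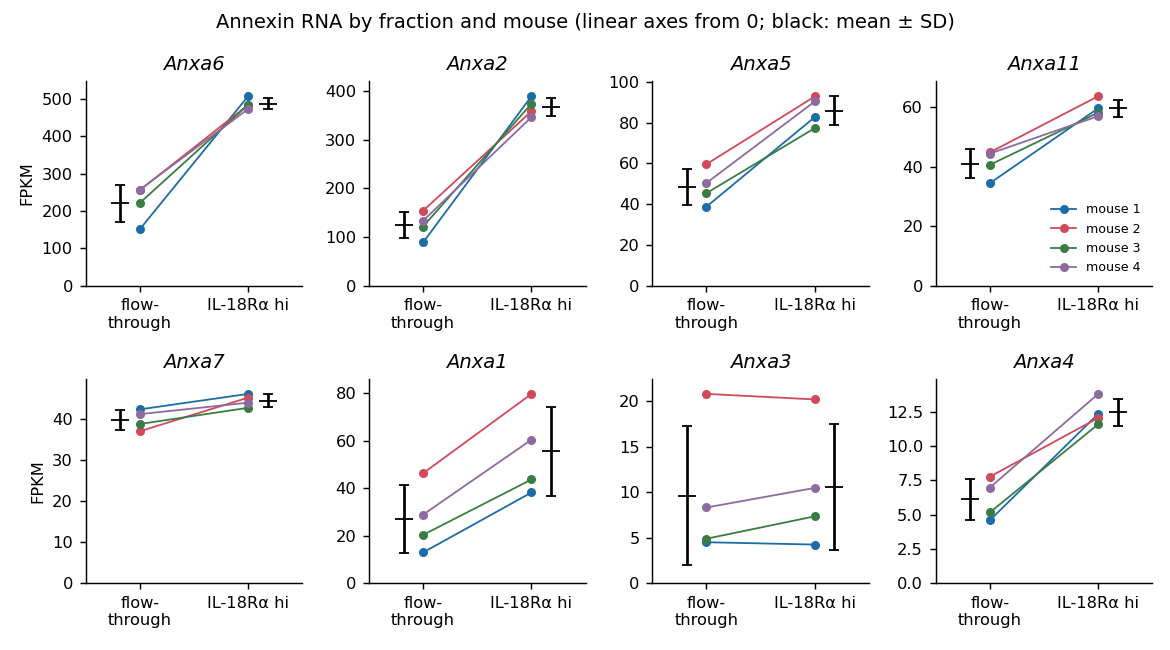
FPKM of each annexin (linear axis from 0) in the flow-through and the IL-18Rαhi-enriched fraction, with lines joining both fractions of a mouse and black marks for the mean ± SD of 4 libraries. *Anxa6*, *Anxa2*, *Anxa5*, *Anxa11* and *Anxa4* rise in every mouse without overlap, *Anxa7* is close to level, and for *Anxa1* and *Anxa3* mouse 2 is the highest in both fractions.

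Sequences before the start sites of the annexins are shown for 4 members: *Anxa2* and *Anxa4*, which rose, *Anxa7*, which was nearly level, and *Anxa1*, which differed among mice. RefSeq start sites on GRCm38.p6 were matched for 6 of the 8 members, the others being *Anxa3* and *Anxa6*. Each line gives the 150 bases before the RefSeq start, 5′ to 3′ on the gene's strand, with capitals for letters that match a motif on either strand. Gene bounds given below are from GENCODE. By these the stretch of *Anxa1* lies within the gene, and that of *Anxa2* ends within it. The stretches lie at chr9:69453533-69453682 (*Anxa2*, plus strand), chr6:86793585-86793734 (*Anxa4*, minus, the outer of 2 start sites), chr14:20480134-20480283 (*Anxa7*, minus, likewise the outer) and chr19:20390672-20390821 (*Anxa1*, minus).
Anxa2: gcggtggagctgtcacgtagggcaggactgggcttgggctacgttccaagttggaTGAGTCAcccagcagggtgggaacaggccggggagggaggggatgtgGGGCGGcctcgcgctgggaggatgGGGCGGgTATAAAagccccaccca
Anxa4: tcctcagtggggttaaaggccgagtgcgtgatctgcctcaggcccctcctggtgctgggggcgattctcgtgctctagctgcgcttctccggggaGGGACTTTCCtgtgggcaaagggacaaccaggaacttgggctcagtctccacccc
Anxa7: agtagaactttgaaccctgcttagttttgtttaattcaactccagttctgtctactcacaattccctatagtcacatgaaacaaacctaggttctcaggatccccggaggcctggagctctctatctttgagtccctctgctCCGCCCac
Anxa1: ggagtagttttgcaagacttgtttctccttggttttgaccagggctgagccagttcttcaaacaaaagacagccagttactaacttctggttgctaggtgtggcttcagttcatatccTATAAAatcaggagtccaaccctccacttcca

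Of the motifs searched, AP-1 was spelled TGANTCA, and its letters were in 4.24% of all 32851 stretches of this length. The GC box was spelled GGGCGG and was in 28.6% of them, while the TATA box, spelled TATAAA, was in 7.57%. The stretch of *Anxa2* held 1 AP-1 match, 2 GC boxes and a TATA box, none of which overlapped. For NF-κB the 10 letters in capitals in the line of *Anxa4* were searched, and 0.103% of all stretches held them. The stretch of *Anxa7* held a GC box, and that of *Anxa1* a TATA box. The ETS motif was spelled CCGGAA and was in 9.23% of all stretches. Among those not printed, the stretch of *Anxa11* held 1 ETS match and 3 GC boxes, that of *Anxa5* and the inner one of *Anxa4* held no motif, and the inner one of *Anxa7* held 3 GC boxes. Letters of RUNX, spelled TGTGGT, were in 8.40% of all stretches. For the T-box motif, spelled GTGTGA, the share was 7.52%, and for the CCAAT box, spelled as named, it was 24.5%. None of these last motifs was in the 8 stretches matched. These are matches of letters, and binding was not measured.

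*Anxa2* had the largest difference. It encodes annexin A2, which bundles actin at membranes and, with S100A10, presents plasminogen and its activator at the cell surface. It lies on chromosome 9 (mm10, 69453620 to 69491795, plus strand). Its level was 88.9, 154, 122 and 134 FPKM in flow-through replicates 1 to 4 and 389.7, 359, 374 and 347 FPKM in the enriched ones. The lowest enriched library was thus more than 2 times the highest flow-through library, and the ratio of means was 2.95. Its log2 fold change came to 1.58 ± 0.15 SE (limma adjusted p = 0.00062), and within the mice it ran from 1.21 to 2.12. The widest difference was in mouse 1, whose flow-through library was poor in T-cell RNA.

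*Anxa6*, on chromosome 11 (54979108 to 55033445, minus strand), encodes a large annexin with a doubled core that links membrane, cholesterol and actin. It was the highest of the 8 in every library. Its level was 151, 255, 221 and 257 FPKM in the flow-through libraries and 507, 484, 484 and 473 FPKM in the enriched ones. The enriched libraries lay close together (SD 14.4 FPKM), while the flow-through libraries were spread (SD 49.6 FPKM), with replicate 1 the lowest. Its log2 fold change came to 1.17 ± 0.16 SE (limma adjusted p = 0.0022).

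*Anxa5* and *Anxa4* rose by similar amounts from different levels. *Anxa5*, on chromosome 3 (36448923 to 36475894, minus strand), encodes the annexin used as a probe for phosphatidylserine on dying cells. It was at 38.7, 59.6, 45.4 and 50.4 FPKM in flow-through cells and 82.7, 92.8, 77.3 and 90.3 FPKM in IL-18Rαhi-enriched cells (limma: 0.82 ± 0.13 SE in log2 fold change, adjusted p = 0.0038). *Anxa4*, on chromosome 6 (86736840 to 86793584, minus strand), encodes an annexin that assembles on membranes during vesicle traffic and repair. It was at 4.59, 7.76, 5.16 and 6.97 FPKM in flow-through cells and 12.3, 12.0, 11.6 and 13.8 FPKM in IL-18Rαhi-enriched cells (limma: 0.94 ± 0.15 SE in log2 fold change, adjusted p = 0.0038). Neither gene overlapped between the fractions.

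*Anxa11*, on chromosome 14 (25842156 to 25886804, plus strand), encodes an annexin with a long disordered head that tethers RNA granules to lysosomes. Its level was 34.4, 44.8, 40.6 and 44.4 FPKM in flow-through cells and 59.6, 63.7, 58.2 and 57.0 FPKM in IL-18Rαhi-enriched cells. Its log2 fold change came to 0.53 ± 0.10 SE (limma adjusted p = 0.0058), the smallest of the 5 that rose. *Anxa7*, on the same chromosome (20455260 to 20480133, minus strand), encodes the annexin first known as synexin, which aggregates secretory granules. It was at 42.2, 36.9, 38.7 and 41.1 FPKM in flow-through cells and 46.0, 45.1, 42.6 and 43.9 FPKM in IL-18Rαhi-enriched cells. The enriched libraries all lay above the flow-through libraries, but by little, and the log2 fold change of 0.16 (SE 0.07) did not pass the test (limma adjusted p = 0.12, unadjusted p = 0.0497).

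The size of these changes depended on how libraries were scaled. With T-cell scaling, each library was shifted to an equal mean of the 8 CD8 T-cell identity genes. Without it, 1 of these 8 was called higher (*Zap70*, log2 fold change 0.64, limma adjusted p = 0.026) and none lower. Of all genes, 14.1% and 13.7% were so called. For 5 of the 8 the enriched libraries lay above every flow-through library, and for none below, beside 16.4% and 15.9% of all genes. Under T-cell scaling the median log2 fold change over all genes was -0.33. The fit then called 549 genes higher and 1092 lower, in place of 1720 and 1664. *Anxa2* (1.24, limma adjusted p = 0.0013), *Anxa6* (0.82, 0.0050) and *Anxa4* (0.63, 0.029) were higher under this scaling too. *Anxa5* (0.48, limma adjusted p = 0.079) and *Anxa11* (0.20, 0.38) were not past the threshold, and the value of *Anxa7* turned to -0.18. Relative to the median of all genes under that scaling, each of these values lay higher.

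**Figure D2:**
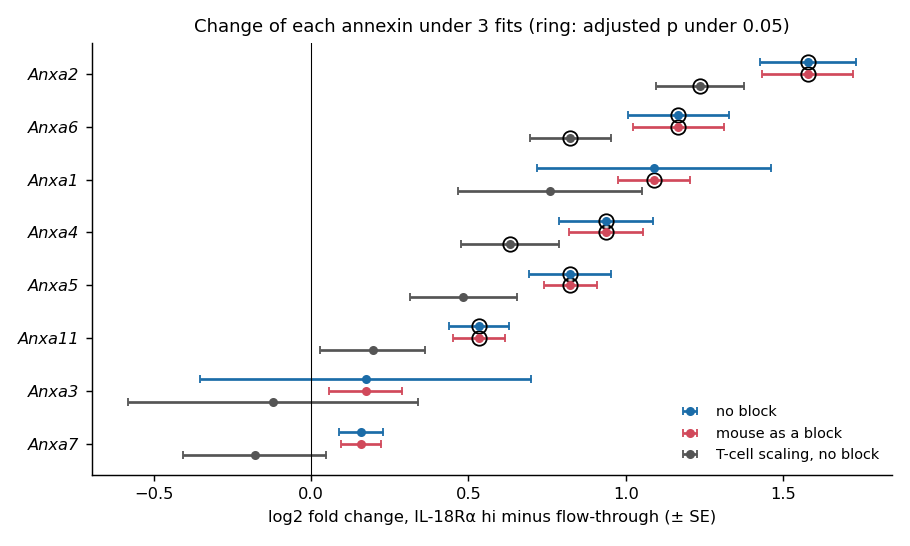
Log2 fold change (enriched minus flow-through, ± SE) of each annexin from limma without a block, with the mouse as a block, and under T-cell scaling without a block, with a ring where the adjusted p is under 0.05. *Anxa2*, *Anxa6* and *Anxa4* carry a ring under all 3 fits, *Anxa1* only with the block, and *Anxa3* and *Anxa7* under none.

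*Anxa1* and *Anxa3* were set apart by their variation among mice. *Anxa1*, on chromosome 19 (20373428 to 20390944, minus strand), encodes a glucocorticoid-induced protein that restrains inflammation through formyl peptide receptors. It was at 13.0, 46.3, 20.4 and 28.9 FPKM in flow-through replicates 1 to 4 and at 38.2, 79.6, 43.7 and 60.4 FPKM in the enriched ones. The fractions overlapped, although within each mouse the enriched library was the higher, by 0.77 to 1.49 on the log2 scale. The log2 fold change of 1.09 (SE 0.37) was not past the threshold without the block (limma adjusted p = 0.059), and it was past it with the mouse as a block (SE 0.11, limma adjusted p = 0.00081). *Anxa3*, on chromosome 5 (96793339 to 96845966, plus strand), was at 4.52, 20.8, 4.90 and 8.33 FPKM in flow-through cells and 4.26, 20.2, 7.36 and 10.5 FPKM in IL-18Rαhi-enriched cells. It was higher in the enriched library of 2 of 4 mice, and neither fit called it (log2 fold change 0.17, limma adjusted p = 0.83 without the block and 0.27 with it).

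In both fractions the 4 mice had the same order for *Anxa1* and *Anxa3*, with mouse 2 highest, then 4, 3 and 1. The summed levels of neutrophil genes, of monocyte and macrophage genes and of megakaryocyte genes had that order in both fractions too. Those of erythroid genes had the reverse order. In the flow-through alone, *Anxa2*, *Anxa4*, *Anxa5* and *Anxa11* had the order of *Anxa1* as well. The T-cell genes *Cd8a* and *Cd3e*, as well as *Il18r1* and *S100a10*, also had it in the flow-through alone. The sum of the 8 CD8 T-cell genes there was likewise lowest in mouse 1, then 3. In that sum mouse 4 (2427 FPKM) exceeded mouse 2 (2360 FPKM), as in *Cd3d*, *Cd3g*, *Cd247*, *Cd8b1*, *Lck* and *Zap70*. *Mpo* and *Elane* made up most of each neutrophil sum. Of the other neutrophil genes none had that order in the flow-through, where *S100a9*, *Camp*, *Ltf* and *Ngp* were highest in mouse 3. In the enriched fraction all but *Ltf* had it. The megakaryocyte order in the flow-through rested on 23.44 against 23.39 FPKM for mice 2 and 4, and *Gp9* had the reverse order there. *Elane*, which encodes neutrophil elastase and is made in granulocyte progenitors, was at 111, 726, 206 and 319 FPKM in flow-through cells and 139.6, 834, 235 and 385 FPKM in IL-18Rαhi-enriched cells. *Mpo* went the other way between the fractions, from 252, 1394, 404 and 669 FPKM to 203, 1175, 354 and 533 FPKM. The summed level of 7 neutrophil genes ran from 392 to 2267 FPKM in flow-through cells and from 421 to 2706 FPKM in IL-18Rαhi-enriched cells. None of these 7 was called between the fractions without the block, and with it 2 were higher (*S100a8* and *Elane*) and 1 was lower (*Mpo*). Of all genes, 14.1% were called higher and 13.7% lower without the block and 22.2% and 22.7% with it. The summed level of 8 monocyte and macrophage genes ran from 127 to 444 FPKM and from 401 to 966 FPKM, and 4 of the 8 were called higher (7 with the block), among them *Lyz2* (lysozyme), which went from 197 ± 108 to 506 ± 222 FPKM. *Lyz2* was not past the threshold without flow-through replicate 1, 3 or 4 or enriched replicate 2 or 4 (limma adjusted p 0.056 to 0.091). Dendritic cell genes were called higher in 6 of 6, with summed levels of 40.0 to 128 against 169 to 498 FPKM. *H2-Aa* made up most of each of these sums, at 72.1 ± 32.2 and 300 ± 123 FPKM. *Xcr1* went from 0.688 ± 0.350 to 4.75 ± 1.38 FPKM and *Clec9a* from 2.39 ± 1.05 to 9.65 ± 3.65 FPKM. NK-cell genes were called higher in 3 of 3 (2.93 to 9.88 against 19.6 to 64.6 FPKM). Of these, the authors report *Ncr1* and *Klrb1c* as receptor genes upregulated in the enriched CD8+ T cells. Which cells held this RNA was not tested. Of the 6 erythroid genes 2 were called lower (4 with the block). Their summed levels were 699.9 to 1818 FPKM in flow-through cells and 111 to 459 FPKM in IL-18Rαhi-enriched cells. *Car1* made up most of each erythroid sum, at 882 ± 328 and 153 ± 80.8 FPKM. *Alas2* (6.44 and 5.89 FPKM) and *Slc4a1* (24.8 and 22.2 FPKM) were called in neither fit. B-cell genes (20.4 to 56.6 against 27.3 to 69.8 FPKM) and megakaryocyte genes (15.5 to 23.4 against 13.1 to 20.1 FPKM) were not called without the block, with which *Cd79b* was higher (limma adjusted p = 0.0499) and *Itga2b* lower (0.044). Both CD4 and regulatory T-cell genes and 1 of 3 γδ T-cell genes (2 with the block) were called higher (1.43 to 5.68 against 7.66 to 26.9 FPKM, and 24.8 to 58.2 against 37.5 to 73.3 FPKM). The part of these cells in the annexin values was not tested.

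**Figure D3:**
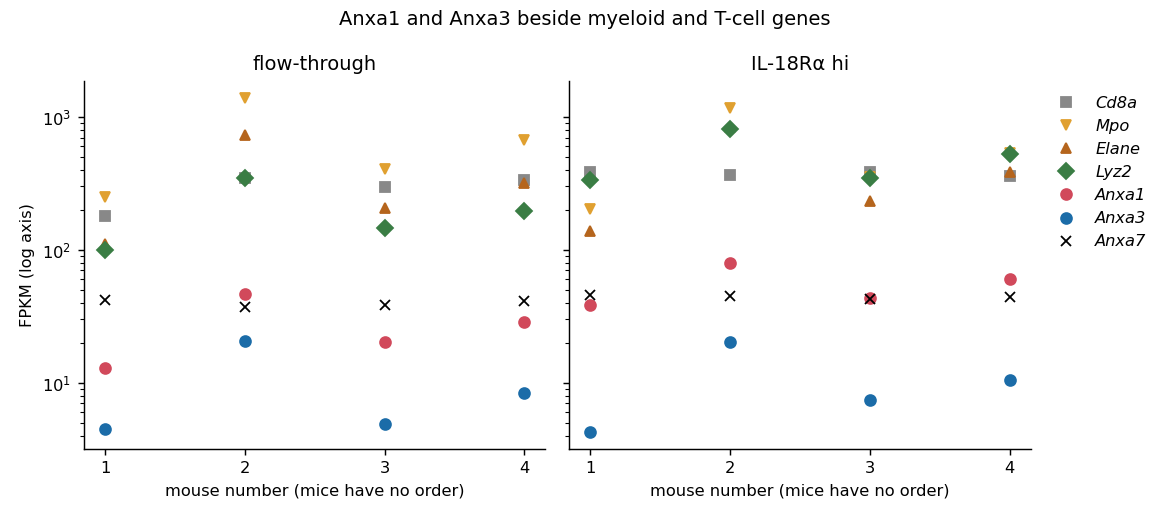
FPKM (log axis) of *Anxa1* and *Anxa3* in each mouse beside the myeloid genes *Mpo*, *Elane* and *Lyz2*, the T-cell gene *Cd8a* and *Anxa7*, with the flow-through on the left and the enriched fraction on the right. *Anxa1*, *Anxa3*, *Mpo*, *Elane* and *Lyz2* are highest in mouse 2 in both fractions, and *Anxa7* stays between 36.9 and 46.0 FPKM.

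FPKM are per transcript length, so levels of the annexins can be ordered within a fraction. In the flow-through the order of mean FPKM was *Anxa6*, *Anxa2*, *Anxa5*, *Anxa11*, *Anxa7*, *Anxa1*, *Anxa3* and *Anxa4*, from 221 down to 6.12 FPKM. Neighbours in this order had overlapping ranges except *Anxa2* and *Anxa5*, although *Anxa6* exceeded *Anxa2* within each of the 4 libraries. In the enriched fraction *Anxa6* (487 ± 14.4 FPKM), *Anxa2* (367 ± 18.7 FPKM), *Anxa5* (85.8 ± 7.11 FPKM) and *Anxa11* (59.6 ± 2.92 FPKM) were separate from one another. *Anxa11*, *Anxa1* and *Anxa7* overlapped along the order. *Anxa7* was separate from *Anxa4*, and *Anxa4* overlapped *Anxa3*. The last pair were at 12.4 and 10.6 FPKM.

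The share of each gene in the summed annexin FPKM does not depend on the scaling of a library, and it is given as a description without a test. *Anxa2* held 24.0 ± 0.605% of annexin RNA in flow-through libraries and 32.7 ± 1.62% in enriched ones, without overlap. *Anxa6* held 42.6 ± 2.52% and 43.4 ± 1.16%, which overlapped. The shares of *Anxa7* (8.02 ± 2.26% and 3.95 ± 0.0770%), *Anxa11* (8.06 ± 0.825% and 5.31 ± 0.139%) and *Anxa5* (9.43 ± 0.626% and 7.64 ± 0.588%) were smaller in every enriched library than in any flow-through library. *Anxa1* held 5.00% and 4.93%, and its share varied among mice, from 3.45 to 7.39% in flow-through libraries and from 3.35 to 6.89% in enriched ones.

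**Figure D4:**
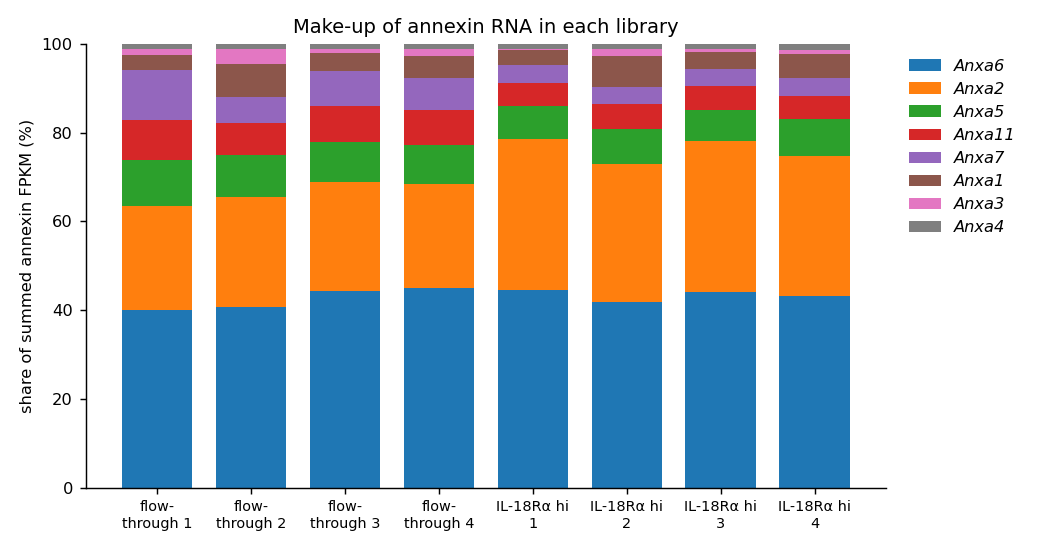
Share (%) of each annexin in the summed FPKM of the 8 annexins, 1 bar per library. *Anxa2* takes 23.4 to 24.6% in the flow-through libraries and 31.0 to 34.2% in the enriched ones, while *Anxa7* and *Anxa11* take less.

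EF-hand partners of the annexins were examined as a list of 6, of which 5 were higher and none lower, beside 14.1% and 13.7% of all genes. *S100a10*, whose protein joins annexin A2, was at 271, 494, 359 and 425 FPKM in flow-through cells and 934, 804, 837 and 892 FPKM in IL-18Rαhi-enriched cells (limma: 1.19 ± 0.17 SE in log2 fold change, adjusted p = 0.0024). *S100a11*, whose protein joins annexin A1, was at 188, 393, 269.7 and 339 FPKM and at 726, 728, 654 and 765 FPKM (limma: 1.32 ± 0.20 SE in log2 fold change, adjusted p = 0.0035). *S100a4* and *S100a6*, small calcium sensors that also bind annexin A2, rose further, with log2 fold changes of 2.14 and 1.92 (limma adjusted p = 0.00029 and 0.00054). *Sri* rose by little (log2 fold change 0.29, limma adjusted p = 0.027) but its value was -0.06 under T-cell scaling, and it was past the threshold without flow-through replicate 1 or 2 but not without any other single library (limma adjusted p 0.054 to 0.076). *Pdcd6*, whose protein binds annexin A7 and annexin A11, was at 56.9 ± 1.61 and 60.0 ± 1.66 FPKM and was not past the threshold (log2 fold change 0.08, limma adjusted p = 0.37).

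Whether an annexin and its S100 partner changed alike was asked of their ratio within each library. The FPKM of *Anxa2* was 0.328, 0.312, 0.339 and 0.315 times that of *S100a10* in flow-through replicates 1 to 4 and 0.417, 0.446, 0.447 and 0.388 times in the enriched ones. The ratio was higher in the enriched library of every mouse. The log2 ratio, taken of FPKM + 1, differed by 0.39 (exact two-sided permutation p = 0.0286, the smallest that 70 arrangements allow), and with correction for the 2 ratios tested the p was 0.0571. Within mice the exact sign-flip p was 0.125, the smallest that 4 pairs allow. The FPKM of *Anxa1* was 0.0690, 0.118, 0.0756 and 0.0853 times that of *S100a11* in the flow-through and 0.0526, 0.109, 0.0667 and 0.0789 times in the enriched fraction. This ratio was lower in the enriched library of all 4 mice, but the fractions overlapped and the log2 ratio differed by -0.23 (exact two-sided permutation p = 0.40, adjusted 0.40; within mice the exact sign-flip p was 0.125).

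**Figure D5:**
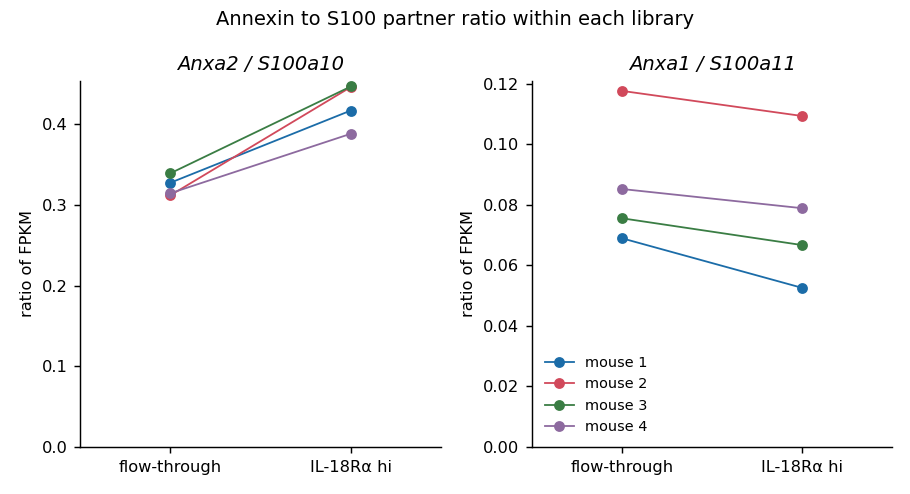
Ratio of FPKM of *Anxa2* to *S100a10* and of *Anxa1* to *S100a11* within each library (linear axes from 0), with lines joining both fractions of a mouse. The first ratio is 0.312 to 0.339 in the flow-through and 0.388 to 0.447 in the enriched fraction, and the second falls in each mouse while the fractions overlap.

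Among the 4 annexins outside the 8, *Anxa9* alone reached a mean of 1 FPKM, and it fell. It was at 5.55, 3.58, 3.33 and 3.28 FPKM in flow-through cells and 2.27, 1.88, 1.98 and 1.12 FPKM in IL-18Rαhi-enriched cells (log2 fold change -0.81, limma adjusted p = 0.015). It was not past the threshold without both libraries of mouse 2, 3 or 4 (limma adjusted p 0.052 to 0.074). *Anxa8* reached at most 0.0296 FPKM in flow-through cells and 0.221 FPKM in IL-18Rαhi-enriched cells, and *Anxa10* and *Anxa13* were listed at 0 in every library.

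Genes of processes in which annexins act were counted from lists. Of 12 genes of plasma membrane repair 9 were tested, 4 were higher and none was lower, beside 14.1% and 13.7% of all genes. With the block 5 were higher, the added gene being *Pdcd6ip*, which encodes the ESCRT adaptor ALIX (limma adjusted p = 0.026, and 0.0895 without the block). The largest of these differences was that of *Ahnak*, which encodes a giant scaffold that binds the annexin A2 and S100A10 complex. It was at 6.62, 10.2, 9.90 and 13.7 FPKM in flow-through cells and 31.2, 41.1, 40.8 and 39.2 FPKM in IL-18Rαhi-enriched cells (limma: 1.85 ± 0.19 SE in log2 fold change, adjusted p = 0.00076). *Capn2*, a calpain protease subunit, rose from 24.8 ± 6.24 to 60.9 ± 3.8 FPKM (log2 fold change 1.30, limma adjusted p = 0.0021). *Capns1*, the shared small calpain subunit (0.40), and *Chmp2a*, of the ESCRT-III machinery (0.30), rose by less, and under T-cell scaling they were at 0.06 and -0.04. The median of the 9 was 0.26, beside -0.02 over all genes, and under T-cell scaling it was -0.08, beside -0.33.

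A list of 9 scramblase- and flippase-family genes was drawn up around phosphatidylserine, the lipid that annexins bind. Movement of this lipid was not measured. Of the 9 genes 1 was higher and 3 were lower, beside 14.1% and 13.7% of all genes, and their median was -0.01. Among the lower ones, the scramblase-family genes *Plscr3* (39.1 ± 2.56 to 19.2 ± 2.89 FPKM, log2 fold change -1.0, limma adjusted p = 0.00093) and *Plscr1* (31.2 ± 5.68 to 18.7 ± 0.815 FPKM, -0.70, 0.0046) fell. *Tmem30a*, which encodes the subunit that flippases need, rose (0.44, limma adjusted p = 0.025), and under T-cell scaling it was at 0.10. Without flow-through replicate 3 or enriched replicate 2, 3 or 4 *Tmem30a* was not past the threshold (limma adjusted p 0.051 to 0.073). Modelling the mouse gave 2 higher and 4 lower members, beside 22.2% and 22.7% of all genes.

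Of 6 eicosanoid genes 4 were tested. *Pla2g4a*, which encodes the cytosolic phospholipase A2 that annexin A1 is known to inhibit, fell from 7.03 ± 1.36 to 3.00 ± 0.427 FPKM (limma: -0.99 ± 0.14 SE in log2 fold change, adjusted p = 0.0026), and the fractions did not overlap. *Alox5* (0.50) and *Alox5ap* (0.85), of leukotriene synthesis, were not past the threshold without the block (limma adjusted p = 0.13 and 0.16) and were higher with it (0.0060 and 0.0017). Of the 4 plasminogen genes 2 were tested and neither was called. The formyl peptide receptor genes *Fpr1*, *Fpr2* and *Fpr3* were below the filter, with *Fpr3* listed at 0 in every library.

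The genes most like *Anxa2* and *Anxa1* in their pattern over the 8 libraries were sought by Pearson's r of log2(FPKM + 1) among 11838 genes, as a description, since the libraries come from 4 mice and fall into 2 fractions. For *Anxa2* they were *Ttc39c* (r = 0.998), *Cep55* (0.998), *Rilpl2* (0.998), *Cxcr3* (0.997) and *Icos* (0.997). *Cxcr3* encodes a chemokine receptor and *Icos* a costimulatory receptor of activated T cells, and *S100a10* stood at rank 68 (r = 0.99). For *Anxa1* they included *Gpr141* (r = 0.995), *Arid3a* (0.995), *Pld4* (0.992) and *Lyz2* (0.991), and *S100a11* stood at rank 785 (r = 0.893). Among the members themselves, r between *Anxa2* and *Anxa6*, *Anxa4*, *Anxa5* and *Anxa11* was 0.97 to 0.99. It was 0.815 between *Anxa2* and *Anxa1* and 0.232 between *Anxa2* and *Anxa3*. *Anxa1* had an r of 0.917 with *Anxa5*, 0.883 with *Anxa11*, 0.878 with *Anxa4* and 0.841 with *Anxa6*. Each of these exceeded its r of 0.736 with *Anxa3*.

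Some annotated transcripts share sequence positions with the members. Exons of *Anxa2*, *Anxa4* and *Anxa11* overlap those of *Gm16144*, *Gm44036* and *Anxa11os* on the opposite strand. Reads of such pairs cannot be told apart where strand is not used in counting, as under the Cufflinks defaults. These 3 genes were at no more than 1.34, 0.667 and 0.0514 FPKM in any library. Exons of *Anxa3* overlap those of *Gm42603* on the same strand, which strand could not separate, and *Gm42603* was listed at 0 FPKM.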

How the data were processed

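Stranded poly(A) libraries were read from both ends. The authors filtered reads by quality, mapped them to mm10 with TopHat and computed FPKM with Cufflinks 2.1.1, with multi-read and fragment-bias correction and other options at their defaults, which do not use strand. The deposited FPKM are not whole reads, so no count model was applied. Depth was estimated from single-transcript genes of at least 1500 bases under 0.2 FPKM, as the worth of 1 fragment, and precision otherwise rests on the replicates.

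Groups and replicate numbers came from the sample labels. Log2(FPKM + 1) was fitted with limma 3.58.1 (R 4.3.3, variance trend, no block) over 12166 genes that averaged 1 FPKM or more, with Benjamini-Hochberg adjustment and a threshold of 0.05. Per the labels 4 mice were used and each gave both fractions, and same-numbered libraries were taken as 1 mouse. Deviations from the group means (across genes) correlated at 0.308 to 0.660 between same-numbered libraries and at -0.600 to 0.412 between the others, and a fit with the mouse as a block is given where it changes a call. Ratios were compared by exact permutation over 70 arrangements. Replicates of a group are separate mice.

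All 8 members were named, partners and listed genes that passed the test were given with values, and the 5 genes most alike were taken by Pearson's r without antigen receptor segments. *Mpo*, *Elane* and the other neutrophil, megakaryocyte, erythroid, dendritic cell and T-cell genes named were singled out after their values were seen. The members and lists were chosen with earlier results of these data known, and no test of a list was made. Values of some listed or similar genes are not reported here. Coordinates are from GENCODE M21 (GRCm38, the mm10 build), in which 98.9% of gene identifiers were found, and start-site sequences are from RefSeq (GRCm38.p6). Alternatives were the block, pseudocounts of 0.1 and 0.5, no filter or one of 5 FPKM, T-cell scaling, quantile normalization, no trend and leaving out each library. Leaving out both libraries of a mouse was added after seeing the data.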

Additional observations from a re-analysis of the deposited data

Results flagged for a closer look

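Of 34 groups of 4 libraries examined for the annexins, *Anxa9*, the EF-hand partners and both ratios, 2 had an outlying library under Dixon's test at the 95% level, beside 1.7 expected by chance at 1 in 20. *Anxa9* was at 5.55 FPKM in flow-through replicate 1 where flow-through replicates 2 to 4 had 3.28 to 3.58 FPKM. *Pdcd6* was at 54.5 FPKM in flow-through replicate 2, where replicates 1, 3 and 4 had 57.4 to 58.0 FPKM. None of the 8 annexins held such a library.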

How the results depend on the processing

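Over 20 alternatives, 149 of 160 values of the 8 annexins kept their direction and their side of the threshold. The number of annexins called higher was 5 and fell to 3 under T-cell scaling, and none was called lower in any fit. *Anxa2*, *Anxa6* and *Anxa4* were higher in all 20, with log2 fold changes of 1.24 to 1.70, 0.82 to 1.26 and 0.63 to 1.06. *Anxa11* was not past the threshold without both libraries of mouse 3 (0.54, limma adjusted p = 0.061). *Anxa1* was higher with the mouse as a block, when flow-through replicate 2 was omitted (1.39, limma adjusted p = 0.017) and without both libraries of mouse 2 (1.20, 0.040), over a range of 0.00081 to 0.19 for its adjusted p. *Anxa3* turned to -0.12 under T-cell scaling, -0.0635 when flow-through replicate 1 was omitted, -0.0313 without flow-through replicate 3 and -0.18 when enriched replicate 2 was omitted, and it was at most 0.60 (0.597 without flow-through replicate 2). Under T-cell scaling *Anxa7* (-0.18), *Pdcd6* (-0.26), *Sri* (-0.0565), *Pdcd6ip* (-0.0832) and *Chmp2a* (-0.0371) also had the opposite sign. The replicate block changed no other call among the annexins, and it gave 0.39 for the ratio of *Anxa2* to *S100a10*, where the sign-flip p of 0.125 could not pass. Genes called higher and lower numbered 1720 and 1664, 2705 and 2763 with the block and 549 and 1092 under T-cell scaling. Leaving out 1 library or 1 mouse gave 447 to 1813 higher and 292 to 1780 lower, with 1115 and 958 without enriched replicate 2, 1107 and 971 without enriched replicate 4, 939 lower without flow-through replicate 3, 1098 and 987 without mouse 2, 447 and 292 without mouse 3 and 851 and 615 without mouse 4. Fewer samples enter these fits. FPKM without reads give no counting error, so values under the filter were not compared.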
